A study of Bos taurus with 31 samples.

Results

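The genes described here are 10 amino acid transporters of the plasma membrane, SLC1A2, SLC1A4, SLC1A5, SLC3A2, SLC7A4, SLC7A5, SLC7A8, SLC38A1, SLC38A2 and SLC38A3. They were chosen by gene name as transporters that can bring amino acids to milk protein synthesis, and they are 10 of the 14084 rows of a table of read counts per gene. RNA was sequenced from mammary epithelial organoids of 16 dairy cows, in 16 lactating libraries (biopsies at 40 to 60 days of lactation) and 15 virgin libraries (biopsies at 14 months of age). Organoids are the clumps of epithelium that remain after collagenase digestion of gland tissue and repeated short spins. Both stages were sampled in 15 cows, and 1 cow gave a lactating library alone. A library name joins L or V to the number of the cow, so L479 and V479 are from 1 animal. The labels give no breed, genotype or treatment. Lactating samples were taken later in life and after calving, and the stage cannot be told apart from the age or from the calving.

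Milk protein synthesis draws free amino acids from blood across the basal membrane of alveolar cells, and several transporter families share this task. Proteins of the SLC1 and SLC38 families use sodium to take up or exchange neutral amino acids or glutamate. SLC7A5 and SLC7A8 exchange large neutral amino acids such as leucine and work only when bound to the heavy chain SLC3A2, which brings them to the cell surface. Amino acids that enter are also sensed by the kinase complex mTORC1, and their lack is sensed by the kinase EIF2AK4 (GCN2), whose signal raises translation of the transcription factor ATF4.

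Total counts over all rows ranged from 26827018 to 72138358 in lactating and from 20128378 to 60114505 in virgin libraries. Some loci are listed in more than 1 row. With each locus counted once, totals ranged from 17637505 to 45478555 in lactating and from 12477568 to 38794104 in virgin libraries. The share of these once-counted totals on 6 milk protein genes (CSN1S1, CSN1S2, CSN2, CSN3, LALBA and PAEP) ranged from 0.242% to 50.7% in lactating and from 0.0281% to 0.681% in virgin libraries. L538 (0.242%) and L478 (0.574%) had the lowest shares among lactating libraries, and V509 (0.681%) had the highest among virgin ones, ahead of V490 (0.186%). Epithelial keratins marked the organoids at both stages, but other cells were present. All 10 endothelial markers tested rose, with a summed level of 254.3 to 1673 CPM (read counts divided by the scaled library size) in lactating and 34.2 to 758 CPM in virgin libraries. Lymphocyte markers rose in 7 of 7 cases (19.0 to 55.0 CPM in lactating, 2.76 to 27.7 CPM in virgin libraries) and macrophage markers in 8 of 9 (118 to 569 CPM in lactating, 15.9 to 73.4 CPM in virgin libraries). Most of the macrophage sum was CD14 (mean 208 CPM in lactating, 19.0 CPM in virgin libraries). The locus counted for CD14 was 25.9 times the span of the gene in RefSeq, so reads of neighbouring genes can be among them. Of 4 adipocyte markers 2 rose and 1 fell, at 27.5 to 1225 CPM in lactating and 2.53 to 171 CPM in virgin libraries, nearly all of it FABP4 (mean 498 CPM in lactating, 24.0 CPM in virgin libraries). Of 7 fibroblast markers 1 rose and 4 fell, at 530 to 1640 CPM in lactating and 326 to 21385 CPM in virgin libraries, where V502 had the highest sum and V581 the next at 2301 CPM. With the animal as a block 2 fibroblast markers rose and 1 fell, and the falls of COL1A1, COL1A2 and COL3A1 were not called. In that fit 2 adipocyte markers rose and 1 fell, with ADIPOQ called in place of LIPE. Luminal markers (2 of 9 rose, 5 fell) summed to 1339 to 3267 CPM in lactating and 1829 to 7672 CPM in virgin libraries, and basal markers (1 of 7 rose, 3 fell, of which KRT14 and KRT17 share 1 locus that is summed once) to 609 to 1294 CPM in lactating and 855 to 5118 CPM in virgin libraries. The locus counted for KRT5 was 19.525 times its RefSeq span, and that for KRT14 and KRT17 was 12.975 and 4.905 times theirs. Reads of neighbouring genes can be among these counts, and all 3 basal falls rest on them. Of the other basal markers, TP63, ACTA2 and CNN1 were not called and OXTR rose. With the animal as a block ACTA2 was called higher (0.79, edgeR adjusted p = 0.0057). In that fit the luminal marker ELF3 (0.60, edgeR adjusted p = 0.0123) and the macrophage marker CD163 (1.83, edgeR adjusted p = 0.0037) were also called higher. No marker tested was at 0 in all libraries of a stage. The part of these cells in the transporter results was not tested, and fewer cells of a type and less RNA per cell cannot be told apart in these bulk samples.

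Of the 10 transporters, all passed the filter on low counts. SLC1A2, SLC7A4, SLC38A3 and SLC38A2 rose in lactation, SLC38A1 and SLC1A5 fell, and SLC3A2, SLC7A5, SLC7A8 and SLC1A4 were not called (edgeR quasi-likelihood test over 13180 rows, Benjamini-Hochberg adjusted p under 0.05). A call in either direction was made for 55.1% of all rows, so 6 of 10 members called (60.0%) is near the background. Rises were called for 24.2% of all rows and falls for 30.9%. With the animal as a block 8 members were called, beside 55.7% of all rows (27.9% higher, 27.8% lower), and without TMM factors, which correct for the composition of a library, 6 were, beside 69.3% (10.5% higher, 58.8% lower). The members' median log2 fold change was 0.28, beside -0.08 for all rows. All 4 risen members were higher in lactation in 15 of 15 animals, a pattern seen in 7.41% of all rows, and SLC38A1 was lower in 15 of 15, as were 5.52% of all rows. No member had stages that did not overlap (1.15% of all rows lay wholly above and 0.781% wholly below the virgin range in lactation). In the authors' deposited table, 5 of the 10 had an adjusted p under 0.05, of which 4 were higher and 1 lower in lactation, and SLC1A5 was not among them.

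**Figure D1:**
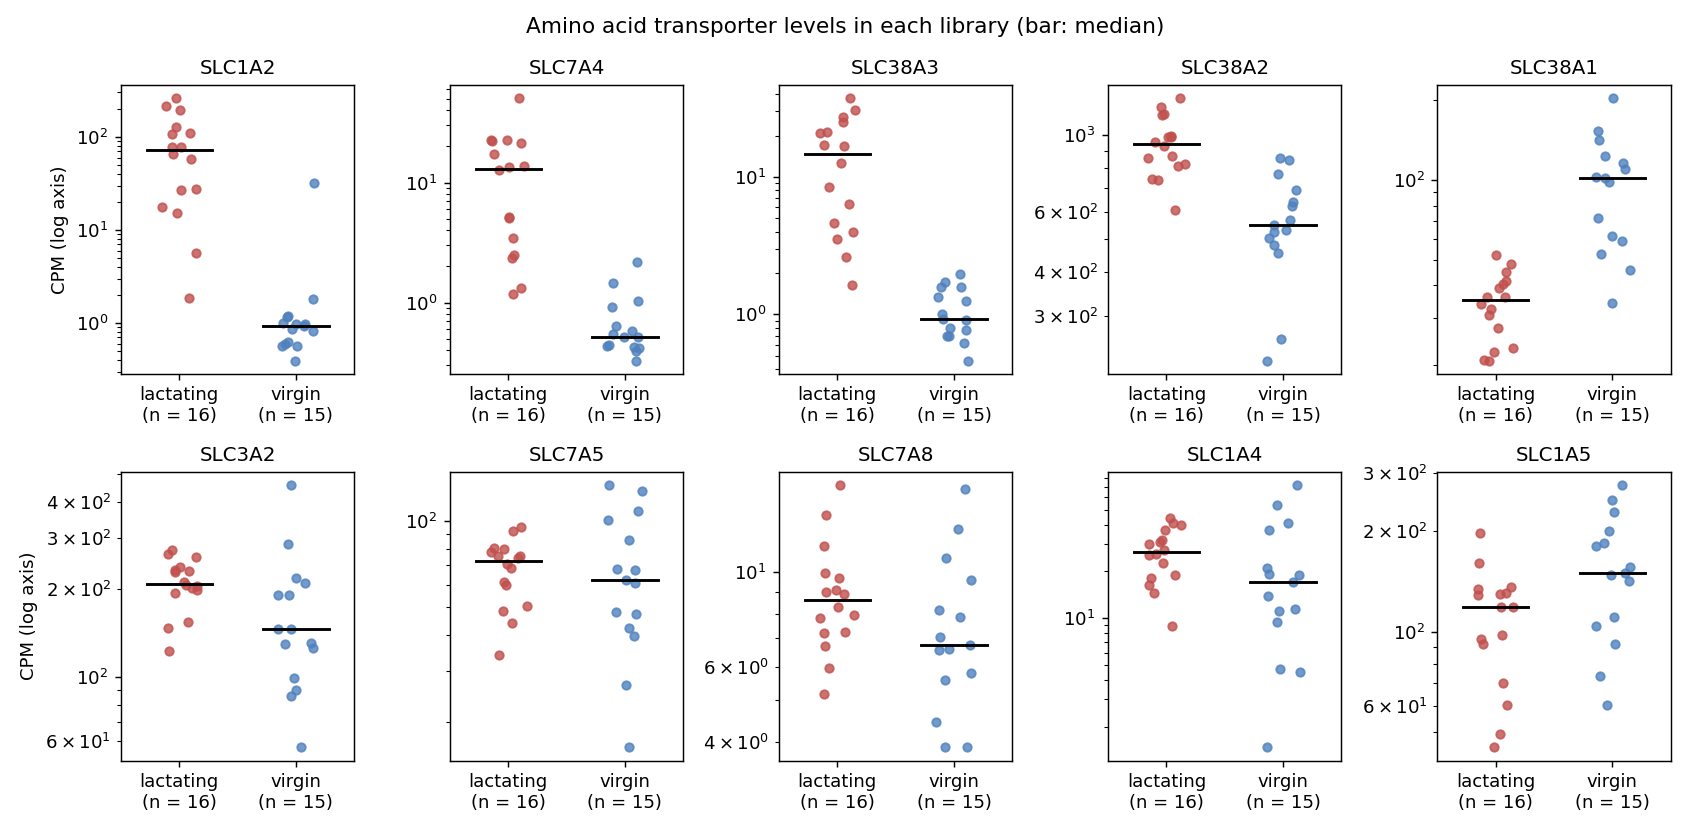
Each panel shows 1 transporter, with its level in CPM on a log axis in 16 lactating libraries (red) and 15 virgin libraries (blue), 1 point per library and a bar at the median. SLC1A2, SLC7A4 and SLC38A3 spread widely among lactating libraries, and 1 virgin library (V509) stands at 32.2 CPM for SLC1A2.

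SLC1A2 (ENSBTAG00000012628), the sodium-driven glutamate transporter known best from astrocytes (there called GLT-1 or EAAT2), had the furthest rise of the 10. It ranged from 1.85 CPM in L538 over a median of 71.5 CPM to 261 CPM in L507 among lactating libraries, and from 0.394 CPM in V507 over a median of 0.936 CPM to 32.2 CPM in V509 among virgin libraries. V509 alone lay within the lactating range, and the next highest virgin library, V610 at 1.82 CPM, was just below L538. The log2 fold change was 4.82 ± 0.75 (SE; edgeR adjusted p = 2.52e-06), and 6.59 without V509 (edgeR adjusted p = 1.47e-10). V509 also had the highest milk protein share of the virgin libraries, with CSN2 at 1208 CPM. Within animals the log2 CPM difference was 1.26 between L509 and V509, 9.20 between L507 and V507, and 0.95 between L538 and V538.

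SLC7A4 (ENSBTAG00000009145) belongs by sequence to the cationic amino acid transporters, although its substrate is uncertain. Its level was 1.18 CPM in L478, a median of 13.1 CPM and 50.6 CPM in L479 among lactating libraries, and 0.327 CPM in V502, a median of 0.512 CPM and 2.19 CPM in V479 among virgin libraries. Of the lactating libraries 14 lay above every virgin one, and L478 and L538 (1.33 CPM) lay within the virgin range. The fitted rise was 4.25 ± 0.48 in log2 (edgeR adjusted p = 1.23e-08), and differences within animals ran from 0.34 between L478 and V478 to 5.90 between L502 and V502. The virgin values rest on 9 to 114 reads per library. The locus counted for SLC7A4 was 7854 bases long, 2.09 times the span of the gene in RefSeq (assembly ARS-UCD2.0), where P2RX6 and LOC100295712 are the adjacent coding genes. Reads of a neighbour within that locus cannot be told apart from those of SLC7A4.

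SLC38A3 (ENSBTAG00000008509), a system N transporter that moves glutamine and histidine with sodium and against protons (SNAT3), had a fitted log2 rise of 3.78 ± 0.39 (edgeR adjusted p = 2.20e-09). Lactating libraries held 1.63 CPM in L538, a median of 14.7 CPM and 37.4 CPM in L479, and virgin libraries 0.461 CPM in V478, a median of 0.919 CPM and 1.97 CPM in V479. Of the 16 lactating libraries 15 lay above all virgin ones. L538 alone overlapped, and in its animal the difference was 0.04 on the log2 CPM scale. Virgin counts were low here too, from 16 to 106 reads.

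The same lactating libraries were low in these 3 genes, though not in the same order. The 7 lactating libraries lowest in SLC7A4 were the 7 with the lowest milk protein share, and the same held for SLC38A3 and for SLC1A2. Between the seventh and eighth libraries in rising order SLC7A4 stepped from 5.20 to 12.6 CPM, SLC38A3 from 8.38 to 12.6 CPM and SLC1A2 from 57.5 to 65.9 CPM, while the milk protein share stepped from 11.2% to 25.6%. For SLC1A4 and SLC1A5 6 of the 7 lowest were the same libraries, for SLC7A5 and SLC38A2 5, and for SLC3A2, SLC7A8 and SLC38A1 3. The 7 lactating libraries lowest in the summed endothelial markers were these 7 as well, up to 668 CPM in L531, before 832 CPM in L610. The luminal sum ran otherwise, from 1339 CPM in L595 to 3267 CPM in L478. The part of cell content in this pattern was not tested. All of this is a description, with no test, of libraries that share 1 scaling. Over all 31 libraries, with the mean of each stage removed, the loci closest to SLC7A4 among 8464 compared were AGPAT1, an enzyme of phospholipid and triglyceride synthesis (Pearson r = 0.942), GCAT, a mitochondrial enzyme of threonine breakdown (r = 0.913), and CSN3, which encodes kappa-casein (r = 0.911). Closest to SLC38A3 were TMC5 (r = 0.919), EMC6, a subunit of a membrane protein insertase (r = 0.911), and FABP3, a fatty acid binding protein of milk-secreting cells (r = 0.888). All 6 were closer in lactating libraries than in virgin ones, as for FABP3 (r = 0.968 in lactating, 0.410 in virgin libraries) and EMC6 (r = 0.973 in lactating, 0.549 in virgin libraries). The virgin values rest on few reads, 9 to 114 for SLC7A4 and 16 to 106 for SLC38A3. The part of these low counts in the lower r was not tested. These correlations were picked as the highest of many and carry no p, and EMC6 and FABP3 were counted over loci 30.7 and 8.17 times their RefSeq span.

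**Figure D2:**
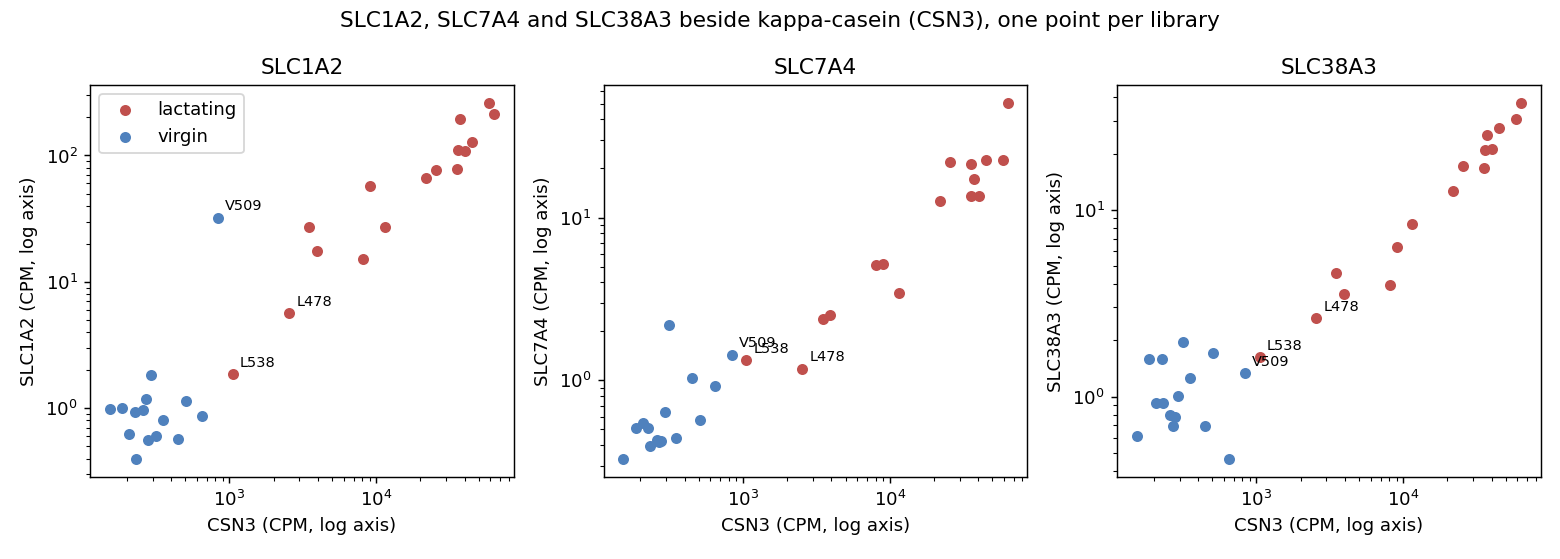
Levels of SLC1A2, SLC7A4 and SLC38A3 (vertical axes, CPM, log) are set against kappa-casein (CSN3, horizontal axes, CPM, log), with 1 point per lactating (red) or virgin (blue) library. L538 and L478 lie at the low end of the lactating points in each panel, and V509 lies apart from the other virgin points for SLC1A2 at 32.2 CPM.

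The SLC38 family was divided. SLC38A2 (ENSBTAG00000011105), a system A transporter of small neutral amino acids that amino acid starvation is known to induce (SNAT2), rose by 0.73 ± 0.15 on the log2 scale, or 1.66-fold (edgeR adjusted p = 1.23e-04). It stood at 608 CPM in L504, a median of 943 CPM and 1277 CPM in L531 among lactating libraries, and at 222 CPM in V479, a median of 548 CPM and 856 CPM in V531 among virgin ones. Every lactating library was above the virgin median, and 11 of 16 were above the highest virgin library. Without the TMM scaling factors the rise was 0.19 and was not called (edgeR adjusted p = 0.358).

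SLC38A1 (ENSBTAG00000000859), also a system A transporter, of glutamine and alanine (SNAT1), had the opposite direction. Lactating libraries ranged from 20.8 CPM in L504 over a median of 35.1 CPM to 52.1 CPM in L615, and virgin libraries from 34.2 CPM in V502 over a median of 101 CPM to 204 CPM in V531. Of the virgin libraries 13 of 15 lay above the highest lactating one. The fitted log2 fold change was -1.51 ± 0.20, a level 2.86-fold lower in lactation (edgeR adjusted p = 1.70e-07), and the fall stayed within 1.40 to 1.59 when each of the 31 libraries was left out in turn. In RefSeq on ARS-UCD2.0 the coding gene next to SLC38A1 is SLC38A2, followed by SLC38A4, so the gene that rose lies between neighbours that fell (SLC38A4, at 0.261 ± 0.116 CPM in lactating and 0.630 ± 0.450 CPM in virgin libraries, SD, n = 16 and 15, fell by 1.27 ± 0.30). The loci closest to SLC38A1 in their variation within stages were TSR1, a ribosome assembly factor (r = 0.852, over a locus 2.56 times its RefSeq span), G3BP1, a stress granule protein (r = 0.847), and NUP153, a nuclear pore protein (r = 0.830). Each was closer in virgin libraries than in lactating ones, as for TSR1 (r = 0.762 in lactating, 0.909 in virgin libraries).

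The balance of SLC38A3 to SLC38A1 shifted in every animal, which follows from the rise of SLC38A3 and the fall of SLC38A1 in all 15. The log2 ratio of their levels, on the authors' RPKM values with 0.1 added, averaged 0.64 ± 1.3 in lactating and -2.87 ± 0.64 in virgin libraries (SD, n = 16 and 15), a difference of 3.51, and the 2 ranges did not overlap. The added 0.1 is large beside the low virgin values of SLC38A3, and with 0.01 added the difference was 4.58. The sign of an average depends on the division by locus length. From CPM, with no such division, the averages were -1.65 ± 1.6 in lactating and -6.31 ± 0.80 in virgin libraries, a difference of 4.66. Only the difference between stages is read here, not which gene stood higher. The pair was chosen with these results known and was not tested. Apart from the added value, a ratio within a library does not depend on how that library was scaled.

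Among the exchangers of large neutral amino acids, no member was called. SLC3A2 (ENSBTAG00000013240), the heavy chain also known as CD98 or 4F2hc, stood at 123 CPM in L490, a median of 209 CPM and 272 CPM in L538 among lactating libraries, and at 57.2 CPM in V478, a median of 146 CPM and 458 CPM in V479 among virgin libraries. The lactating values lay wholly inside the virgin range. Its log2 fold change was 0.30 ± 0.20 (edgeR adjusted p = 0.201), with a 95% interval (1.96 SE either way) of -0.09 to 0.69, and it was higher in 12 of 15 animals. With the animal as a block it was called (0.47, edgeR adjusted p = 0.0251), as it was without V479 (0.49, edgeR adjusted p = 0.0140). Without TMM factors its sign changed (-0.16, edgeR adjusted p = 0.504).

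SLC7A5 (ENSBTAG00000006731), the light chain LAT1, which exchanges leucine and other essential amino acids for glutamine, ranged from 34.2 CPM in L478 over a median of 72.4 CPM to 94.8 CPM in L479 in lactating libraries. In virgin libraries it ranged from 16.3 CPM in V478 over a median of 62.3 CPM to 133 CPM in V531. Virgin libraries enclosed the lactating range on both sides, with 4 of 15 above the highest lactating one. The log2 fold change was -0.02 ± 0.21 (edgeR adjusted p = 0.948), with a 95% interval of -0.43 to 0.40, and 9 of 15 animals were higher. Without TMM factors SLC7A5 was called lower (-0.57, edgeR adjusted p = 0.0258). SLC7A8 (ENSBTAG00000007415), the light chain LAT2 of broader substrate range, held 5.17 CPM in L538, a median of 8.60 CPM and 16.1 CPM in L479 in lactating libraries, and 3.87 CPM in V598, a median of 6.75 CPM and 15.7 CPM in V479 in virgin libraries. The ranges were nearly the same, with a log2 fold change of 0.23 ± 0.18 (adjusted p = 0.281 by edgeR) and a 95% interval of -0.12 to 0.59, and -0.28 without TMM factors (edgeR adjusted p = 0.141). The log2 ratio of SLC7A5 to SLC7A8 differed between stages by -0.03, from averages of 3.13 ± 0.45 in lactating and 3.16 ± 0.86 in virgin libraries (SD, n = 16 and 15).

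SLC3A2 and SLC7A5 varied together across virgin libraries, and in lactating ones their relation was weaker without the pair of libraries farthest from the median. Both light chains were compared with SLC3A2 in each stage on log2 CPM, which gave 4 relations, with permutation p-values from 100000 resamples (two-sided) adjusted over the 4. For SLC7A5, Pearson r was 0.708 (permutation p = 0.00303, adjusted 0.00606) and Spearman rho 0.544 (permutation p = 0.0318, adjusted 0.0636) in 16 lactating libraries. Without L478 and L490, the libraries farthest from the median of SLC3A2, r was 0.425 (permutation p = 0.130), so the lactating relation rests on those samples, whose removal also narrows the range of SLC3A2. Without L478 and L538 r was 0.622 (permutation, adjusted p = 0.0341, 14 libraries). In the 15 virgin libraries r was 0.868 (permutation p = 7e-05, adjusted 0.00028) and rho 0.846 (permutation p = 0.00011, adjusted 0.00044), and r was 0.855 without V478 and V479 (permutation p = 0.00028). For SLC7A8, r was -0.304 (permutation p = 0.252, adjusted 0.336) and rho -0.474 (permutation p = 0.0664, adjusted 0.0886) in lactating libraries. In virgin ones r was 0.212 (permutation p = 0.452, adjusted 0.452) and rho 0.021 (permutation p = 0.945, adjusted 0.945). Whether the relations differ between stages or between light chains was not tested. Of the labels, only the letters after 5 virgin titles could mark a batch, and their meaning is not given. Without those animals r of SLC3A2 and SLC7A5 was 0.630 in lactating (permutation, adjusted p = 0.0826, 11 libraries) and 0.826 in virgin libraries (permutation, adjusted p = 0.0109, 10 libraries). For SLC7A8 it was then -0.549 in lactating and 0.565 in virgin libraries (permutation, adjusted p = 0.102 in both). With 5 animals carrying a letter, no value is given for them alone.

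**Figure D3:**
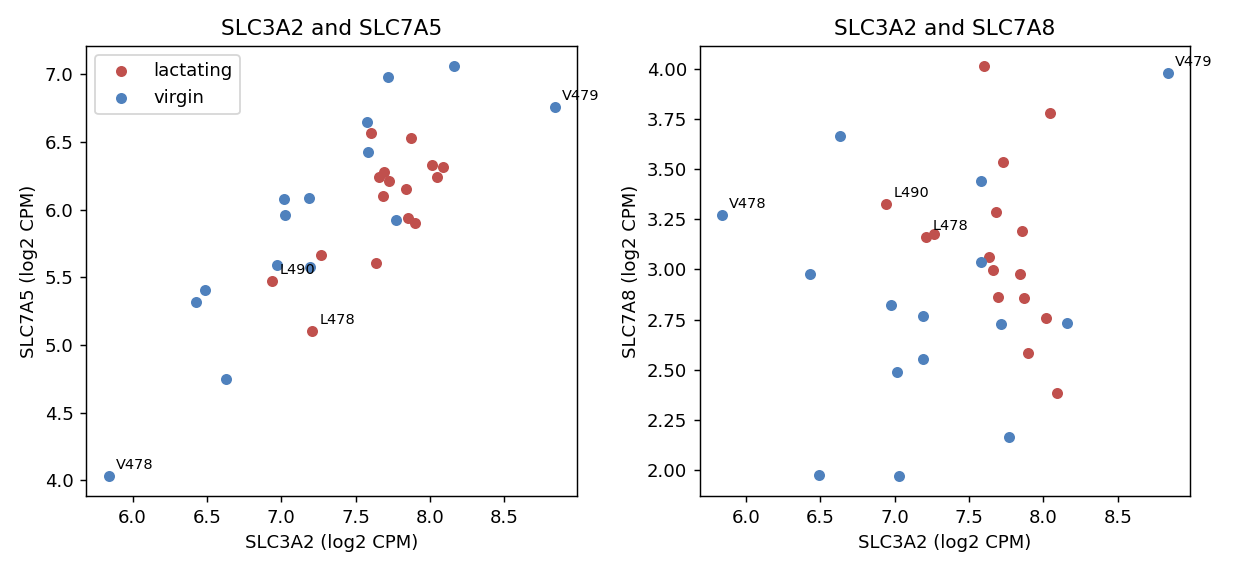
SLC3A2 (horizontal axes, log2 CPM) is plotted against its light chains SLC7A5 and SLC7A8 (vertical axes, log2 CPM), 1 point per lactating (red) or virgin (blue) library, with the libraries farthest from the median of SLC3A2 named. SLC7A5 follows SLC3A2 over the virgin points (r = 0.868), while the points of SLC7A8 show no such line (r = 0.212).

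Of the neutral amino acid exchangers of the SLC1 family, SLC1A5 was called lower and SLC1A4 was not called. SLC1A5 (ENSBTAG00000013577), ASCT2, which exchanges glutamine, held 45.0 CPM in L478, a median of 119 CPM and 198 CPM in L479 in lactating libraries, and 60.3 CPM in V478, a median of 150 CPM and 276 CPM in V479 in virgin libraries. The stages overlapped over most of their range. Its log2 fold change was -0.51 ± 0.21 (adjusted p = 0.0365 by edgeR), and it was lower in 11 of 15 animals. That call was lost when any 1 of 10 libraries was left out (L468, L478, L490, L504, L538, V479, V504, V507, V531 or V538; highest edgeR adjusted p = 0.0708, without V479) and without L478 and L538 (-0.41, edgeR adjusted p = 0.0828). With the animal as a block it was kept (-0.52, edgeR adjusted p = 0.0136), and without TMM factors the value was -1.06 (edgeR adjusted p = 1.41e-05).

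SLC1A4 (ENSBTAG00000007763), ASCT1, which exchanges alanine, serine and cysteine, had a narrower range in lactating than in virgin libraries, a difference in spread that was not tested. Lactating libraries held 8.95 CPM in L478, a median of 26.5 CPM and 43.9 CPM in L479, and virgin libraries 1.47 CPM in V478, a median of 17.0 CPM and 72.1 CPM in V538. The coefficient of variation was 37.6% in lactating and 89.3% in virgin libraries. The log2 fold change was 0.27 ± 0.35 (edgeR adjusted p = 0.540), with a 95% interval of -0.42 to 0.95. SLC1A4 was higher in 11 of 15 animals, and with the animal as a block it was called (0.76, edgeR adjusted p = 0.0403). Without TMM factors its sign changed (-0.40, edgeR adjusted p = 0.335). The log2 ratio of SLC1A4 to SLC1A5 averaged -3.24 ± 0.26 in lactating and -4.27 ± 0.85 in virgin libraries (SD, n = 16 and 15), a difference of 1.03, and was higher in lactation in 13 of 15 animals.

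**Figure D4:**
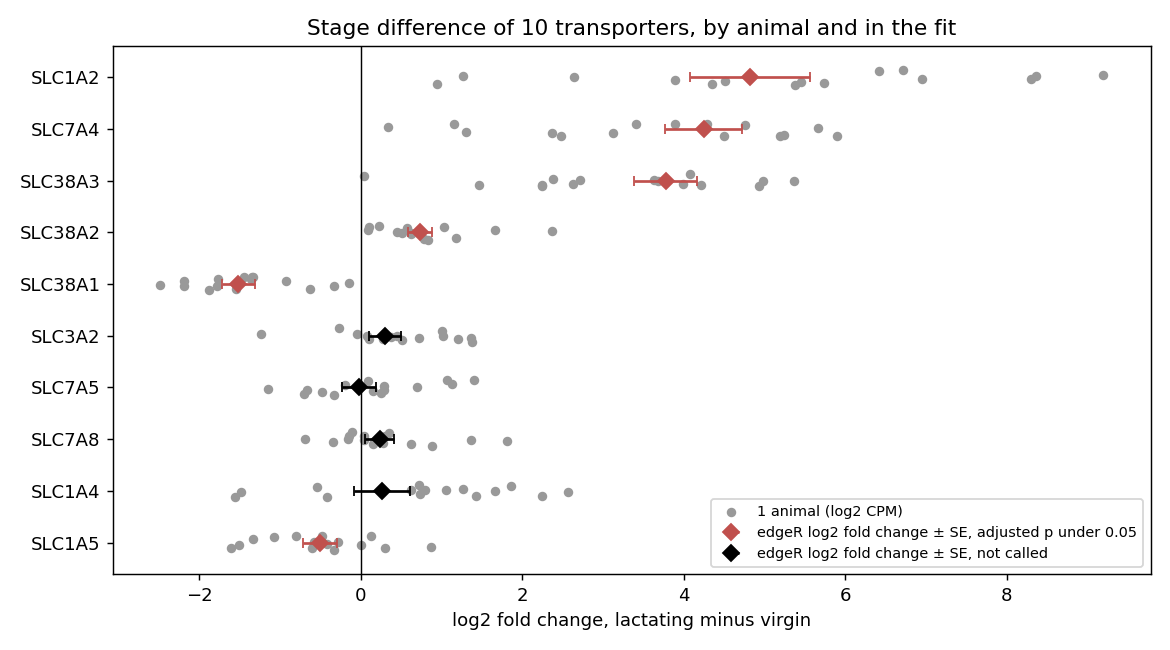
For each transporter, grey points give the difference of log2 CPM, lactating minus virgin, in each of 15 animals, and diamonds the edgeR log2 fold change with its SE as bars (red where called, black where not). The points of SLC1A2, SLC7A4, SLC38A3 and SLC38A2 all lie above 0 and those of SLC38A1 all below it.

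Of 23 other amino acid transporters tested from a list of 30, 7 rose and 3 fell (43.5% called, beside 55.1% of all rows), with a median log2 fold change of 0.28 beside -0.08 for all rows, while the animal as a block gave 11 rises and 2 falls, and 4 rose and 8 fell without TMM factors. SLC38A7, a glutamine transporter found on lysosomes in human cells, rose by 1.85 ± 0.21 (20.2 ± 9.26 CPM in lactating, 5.60 ± 2.26 CPM in virgin libraries, SD, n = 16 and 15), over a locus 1.56 times its RefSeq span. SLC7A7, a light chain for cationic and neutral amino acids that macrophages also express, rose by 1.41 ± 0.21 (4.46 ± 1.19 CPM in lactating, 1.70 ± 1.10 CPM in virgin libraries), as did macrophage markers in 8 of 9 cases. The part of macrophages in the rise of SLC7A7 was not tested. SLC43A2, the leucine uniporter LAT4, rose by 1.25 ± 0.24 and SLC36A4, a transporter of proline and tryptophan, by 1.06 ± 0.19. SLC1A3, a glutamate transporter of the same family as SLC1A2, fell by 1.42 ± 0.32, to 1.15 ± 0.37 CPM in lactating against 3.07 ± 3.33 CPM in virgin libraries. These 5 calls, and that of SLC38A4, were also made without TMM factors, with the animal as a block and without L478 and L538.

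Of 22 genes tested from the response to amino acid lack, 7 rose and 3 fell, 45.5% called beside 55.1% of all rows (12 and 3 with the animal as a block, 3 and 7 without TMM factors), with a median of 0.25. ATF4, the transcription factor that drives SLC7A5, SLC3A2 and SLC7A11 in mouse and human cells, rose by 0.64 ± 0.09 and was higher in 15 of 15 animals (518 ± 64.0 CPM in lactating, 333 ± 70.7 CPM in virgin libraries, SD, n = 16 and 15). Its locus in the count table was 5.63 times its RefSeq span, and without TMM factors it was not called (0.15, edgeR adjusted p = 0.219). Of the 3 targets of ATF4 named here, SLC7A11 fell by 1.37 ± 0.45 (edgeR adjusted p = 0.0106) and was lower in 10 of 15 animals. SLC7A5 and SLC3A2 were not called. Other targets were not sorted from this list, and whether the targets of ATF4 changed as a set was not tested. With the animal as a block the fall of SLC7A11 was not called (-0.54, edgeR adjusted p = 0.230), and SLC3A2 was called higher. NUPR1, a stress-induced nuclear protein, rose by 1.95 ± 0.22, DDIT4, an inhibitor of mTORC1 signalling, by 1.68 ± 0.19, and ATF5, a relative of ATF4, by 1.18 ± 0.17 over a locus 5.33 times its RefSeq span. The other rises of the list were VLDLR by 1.17 ± 0.27, DDIT3 by 0.89 ± 0.18 and TRIB3 by 0.65 ± 0.15 (over a locus 3.11 times its RefSeq span). None of these last 3 was called without TMM factors. SHMT2, the mitochondrial enzyme that turns serine into glycine, fell by 1.03 ± 0.13 in 15 of 15 animals, and EIF2AK4 itself fell by 0.53 ± 0.11. ASNS, asparagine synthetase, stood at 90.0 ± 24.2 CPM in lactating and 75.2 ± 54.0 CPM in virgin libraries and was not called (0.26 ± 0.27, edgeR adjusted p = 0.431). With the animal as a block ASNS was called (0.56, edgeR adjusted p = 0.0347).

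Genes by which mTORC1 senses amino acids gave 4 rises and 6 falls among 27 tested, 37.0% called beside 55.1% of all rows (7 and 6 with the animal as a block, 0 and 16 without TMM factors), with a median of -0.09. MTOR, the kinase of the complex, fell by 0.70 ± 0.09 (19.2 ± 2.06 CPM in lactating, 31.2 ± 5.86 CPM in virgin libraries, SD, n = 16 and 15) and was lower in 14 of 15 animals. RPTOR, its partner that binds substrates, fell by 0.39 ± 0.09. Of the RAG GTPases that carry the signal on lysosomes, RRAGB fell by 0.60 ± 0.15, while RRAGC rose by 0.71 ± 0.13 and RRAGD by 0.62 ± 0.18 over a locus 1.79 times its RefSeq span. Neither rise was called without TMM factors (0.23 for RRAGC, edgeR adjusted p = 0.281, and 0.18 for RRAGD, edgeR adjusted p = 0.393).

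Enzymes that convert amino acids gave 5 rises and 5 falls among 21 tested, 47.6% called beside 55.1% of all rows (7 and 6 with the animal as a block, 0 and 12 without TMM factors) and a median of -0.04. GLUD1, glutamate dehydrogenase, rose by 0.56 ± 0.09 in 15 of 15 animals and GPT2, the mitochondrial alanine aminotransferase, by 0.78 ± 0.16, both calls lost without TMM factors (0.05, edgeR adjusted p = 0.766, and 0.28, edgeR adjusted p = 0.0873). CBS, which starts the route from homocysteine to cysteine, fell by 1.16 ± 0.18, and GOT1, the cytosolic aspartate aminotransferase, by 0.72 ± 0.14. GLUL, glutamine synthetase, stood at 394 ± 54.5 CPM in lactating and 487 ± 187 CPM in virgin libraries (SD, n = 16 and 15) and was not called (-0.31 ± 0.15, edgeR adjusted p = 0.0813), though it was without TMM factors.

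**Figure D5:**
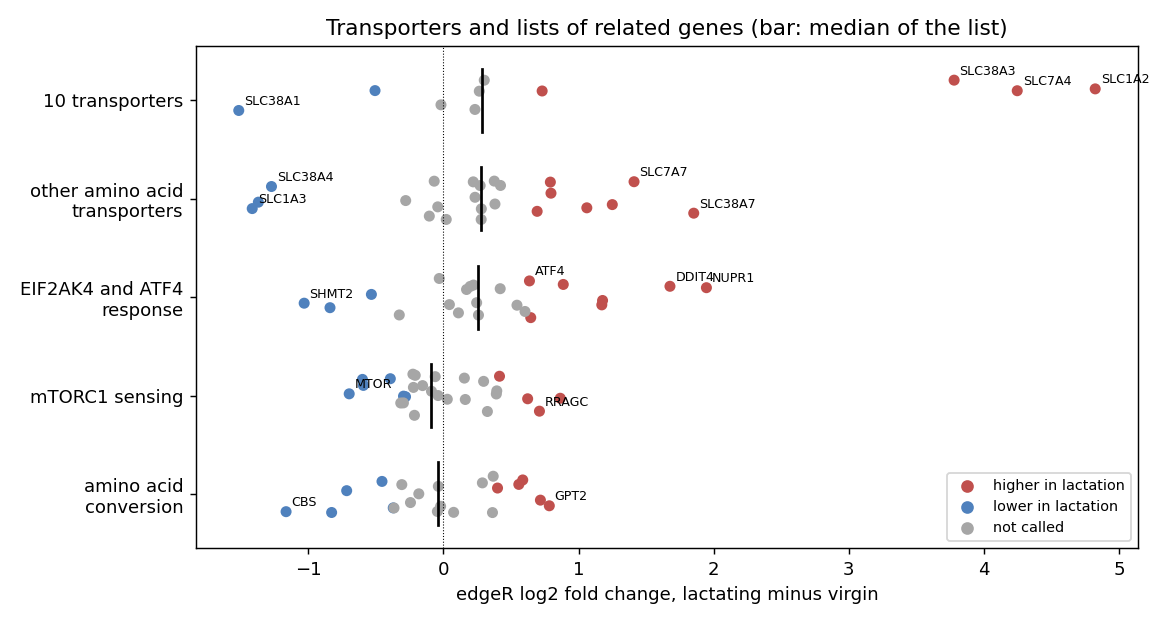
Each point is the edgeR log2 fold change of 1 gene, lactating minus virgin, in the 10 transporters and in 4 lists of related genes, red where called higher, blue where called lower and grey where not called, with a bar at the median of each list. The transporters spread furthest, from -1.51 for SLC38A1 to 4.82 for SLC1A2, and the medians lie between -0.09 and 0.28.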

How the data were processed

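The authors deposited raw read counts for each gene. Another table of theirs, also deposited, gives RPKM values, log2 fold changes (virgin minus lactating, as judged from its RPKM values) and adjusted p-values whose adjustment is not given. The submitters' processing notes name HISAT2 2.0, StringTie 1.3.2, featureCounts 1.5.2 and build UMD3.1, without their roles; whether counting used strand is not given in the sources used here. The ratio of deposited count to RPKM gave whole locus lengths (relative deviation at most 1.75e-13) that match RefSeq genomic spans, introns included, within 10% for 61.9% of 12539 rows. The RPKM values are therefore per genomic span, and levels are not compared between genes. Ratios between members are read only as differences between stages. The 10 members had 1 row each, and none shared its counts with another row. Across the table, 592 loci were listed more than once.

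Rows were filtered with filterByExpr (minimum count 10, minimum total 15), which kept 13180, scaled with TMM factors and fitted with edgeR 4.0.16 (R 4.3.3, glmQLFit with robust estimation, group as the only term). Calls use Benjamini-Hochberg adjusted p under 0.05 over all rows, and the SE is the log2 fold change over the square root of F. CPM are over TMM-scaled libraries. On simulated data for the same fit of lactating against virgin (13180 rows simulated, of which the filter kept 13143), 22 of 50 rows changed 1.5-fold, 44 of 50 rows changed 2-fold and 49 of 50 changed 4-fold were recovered, with 8 of 173 calls on unchanged rows. Only 50 rows were changed at each of 1.5-, 2-, 4- and 8-fold, and the stage difference in milk protein share was not simulated. In the data 55.1% of rows were called, so these rates need not hold there. Replicates are animals, and no pair of libraries in a stage agreed within sampling noise (lowest chi-square per degree of freedom 35). The animal number pairs the stages, per the series design. After removal of stage means, a library correlated with its own animal's other stage at 0.065 to 0.398, and over 0.1 in 12 of 15 pairs. Alternatives were no TMM factors, DESeq2 1.42.0, limma-voom (limma 3.58.1), other filters, the animal as a block, each locus once and left-out libraries. Members and lists were chosen with earlier results of these data known. Named genes, other than the 3 loci most like each of SLC7A4, SLC38A3 and SLC38A1 (average log2 CPM at least 2), were all members and, per list, the 4 called members with the smallest p, up to 2 called against the list's main direction, and ATF4, MTOR, GLUL and ASNS. Outside this rule, SLC7A11 was named as a target of ATF4, and some cell type markers were named. VLDLR, DDIT3 and TRIB3 were named as the other rises of their list. RefSeq (ARS-UCD2.0) served only for spans and neighbours, and sequences were not used here.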

Additional observations from a re-analysis of the deposited data

How the results depend on the processing

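The rises of SLC1A2, SLC7A4 and SLC38A3 and the fall of SLC38A1 were called under every alternative run, and the rise of SLC38A2 under all but the fit without TMM factors. Without TMM factors the log2 fold changes of all rows shifted by -0.47 in their median, the calls over all rows became 1389 higher and 7751 lower, and the members' counts became 3 higher and 3 lower, against 4 and 2. SLC1A2, SLC7A4 and SLC38A3 then stood at 4.03, 3.56 and 3.09. With the replicate block (the animal), 6 members were higher and 2 lower, and no member's call was lost. SLC1A2 was then at 5.46. The members called lower numbered 1 with limma-voom, 1 without L478 and L538, 1 without the animals with a lettered virgin title, and 1 to 2 with each library left out in turn, since SLC1A5 lost its call there (in 10 of the 31 fits that left out a library). With limma-voom SLC3A2 was called higher (adjusted p = 0.0472). SLC1A2 was at 4.11 without the lettered animals and at 4.62 to 6.59 with each library left out. The log2 ratio of SLC38A3 to SLC38A1 differed by 4.66 from CPM with no division by length and by 4.58 with 0.01 RPKM added, against 3.51. The correlation of SLC3A2 with SLC7A5 in lactation (0.630 without the lettered animals) was no longer past the threshold, with fewer libraries. Low virgin counts of SLC1A2, SLC7A4 and SLC38A3 limit the precision of their fold changes.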
